A study of Mus musculus with 7 samples.

Results

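The transcripts that set SK7 ES cells apart from somatic cells were taken as the genes whose array signal in SK7_ESC was at least 2-fold above the highest of 6 other arrays, or at least 2-fold below the lowest of them. Of 18194 genes, 216 were higher in SK7_ESC (1.19% of all genes) and 58 were lower (0.319%). Among the probe sets annotated to no other symbol, the one with the largest average log2 signal across all arrays stood for its gene, and signals under a background of 50 were raised to 50 before any ratio was taken. The signals themselves chose these genes, so their ratios are a description and carry no test. Because a signal of at least 100 in SK7_ESC was needed to reach 2-fold over background, the 216 genes were 3.48% of the 6201 genes at that level, and the 58 lower genes were 1.78% of the 3252 genes that reached 100 in all 6 other arrays.

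The study followed promoter methylation and expression as ES cells were differentiated, and its expression part consisted of 7 arrays with 1 sample each. SK7_ESC was the male mouse ES cell line SK7, which carries a GFP reporter transgene driven by the Pdx1 promoter. Ect, End and Pme were ectoderm, endoderm and paraxial mesoderm obtained from SK7 in culture, so these 4 arrays share 1 line and its transgene. Brain, Liver and Sk_muscle came from adult male ICR mice more than 9 weeks old, and the labels give ICR as the strain of all 7 samples. With 1 array per condition the spread between samples is unknown, no difference has a replicate check, and no p-value or SD is given. In bulk RNA of this kind, fewer cells of a type and less RNA per cell cannot be told apart.

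Pluripotent cells can form every tissue of the embryo, and they hold this state through a circuit of transcription factors centred on Oct4, Sox2 and Nanog, sustained in mouse cells by LIF and held in check by FGF signalling. They cycle rapidly, keep an open chromatin, and transcribe some genes otherwise used by germ cells, oocytes and early embryos. Exit from this state in culture passes through cells that still share part of the circuit, and adult tissues lie much further away.

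The 9 marker genes of ES cells were brightest in SK7_ESC of the 7 arrays, among them Dppa5a, Dnmt3l and Rhox5. Dppa5a, an RNA-binding protein of pluripotent cells, had a signal of 5574 in SK7_ESC, against 19.9 in Ect, 17.6 in End, 26.8 in Pme, 16.8 in Brain, 13.5 in Liver and 1.0 in Sk_muscle. Dnmt3l, the catalytically inactive partner of the de novo DNA methyltransferases, had 848.4 in SK7_ESC, against 15 in Ect, 1.6 in End, 7.5 in Pme, 8.3 in Brain, 17.9 in Liver and 11.2 in Sk_muscle. Both were under background in all 6 other arrays, so their ratios are lower bounds, at least 111-fold for Dppa5a and at least 17.0-fold for Dnmt3l. Rhox5, an X-linked homeobox gene of placenta and testis, had 1051 in SK7_ESC, 17.8 in Ect, 93.4 in End, 69.7 in Pme, 2.4 in Brain, 23.5 in Liver and 7.6 in Sk_muscle. It was above background in 2 of the 6 others and 11.3-fold over End.

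Markers of the other cell types were mostly at background in SK7_ESC. None of 5 brain and none of 6 liver markers was above background there, against 1 of 6 ectoderm, 1 of 6 endoderm, 2 of 6 paraxial mesoderm and 1 of 6 skeletal muscle markers. The muscle exception was Mylpf, a fast myosin light chain, at 662.9 in SK7_ESC and 16521 in Sk_muscle, while Acta1, Ckm, Myh4, Tnnt3 and Mb were between 0.4 and 24.4 in SK7_ESC. All ectoderm and endoderm markers were brightest in their own array, but the ectoderm gene Pax6 was under background there, at 30.5 in Ect. In Pme 3 of 6 markers were brightest, and the mesoderm genes Meox1, Tcf15 and Tbx6 were under background there. The 30 genes of embryonic fibroblasts, the usual feeder cells, summed to 6630 in SK7_ESC, against 11983 in Ect, 6694 in End, 30132 in Pme, 5256 in Brain, 13857 in Liver and 24473 in Sk_muscle, with 20 of 30 above background in SK7_ESC. None of these 30 was among the 216 higher genes, and 1, Dcn, was among the lower ones. A higher call needs SK7_ESC to exceed every other array, Pme and Sk_muscle with their larger sums included. Whether feeder RNA was present in SK7_ESC was therefore not tested.

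**Figure D1:**
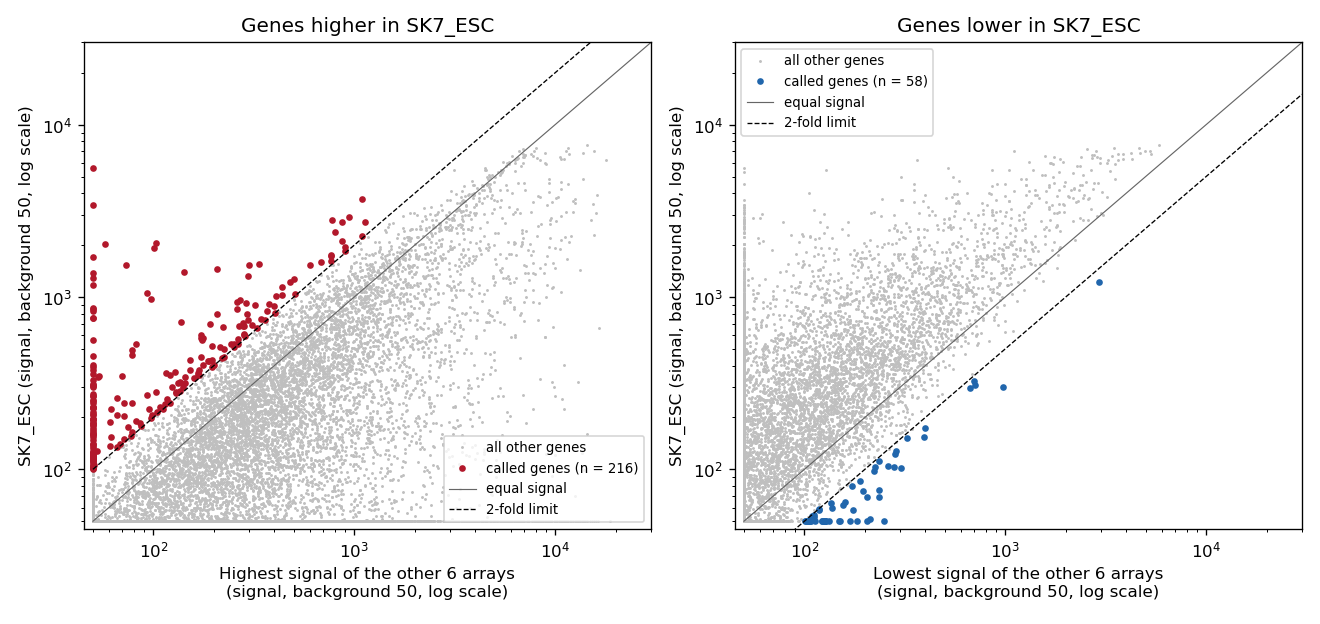
Signal in SK7_ESC (y axis) against the highest (left) and the lowest (right) of the other 6 arrays (x axis) for 18194 genes, on log scales with signals under 50 raised to 50. Coloured points are the 216 genes above and the 58 genes below the 2-fold limit (dashed lines), grey points all other genes, and the column of points at 50 on the left holds the 81 higher genes under background in all 6 other arrays.

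In 81 of the 216 higher genes all 6 other arrays were under background, and in 135, called graded here, at least 1 was above it. The 81 had a median signal of 185.0 in SK7_ESC, against medians of 7.5 in Ect, 10.4 in End, 8.6 in Pme, 8.2 in Brain, 11.3 in Liver and 10.2 in Sk_muscle. The 135 had a median of 522.7 in SK7_ESC, against 103.4 in Ect, 151.5 in End, 120.8 in Pme, 52.4 in Brain, 43.4 in Liver and 57.2 in Sk_muscle. Of the 135, 40 were above background in all 6 other arrays. The whole set had a median ratio of 2.56, with 90 genes at 3-fold or more, 53 at 4-fold or more, 18 at 10-fold or more and 8 at 20-fold or more. With a background of 100 in place of 50, 155 of the 216 remained, and the 61 with a signal under 200 in SK7_ESC did not.

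The germ layers held more of the graded signal than the adult tissues. Of the 135 graded genes, the brightest of the other arrays was End for 60, Ect for 26, Pme for 23, Brain for 12, Liver for 7 and Sk_muscle for 7, so a germ layer was brightest for 109 and an adult tissue for 26. In 36 genes at least 1 germ layer and no adult tissue was above background, in 9 at least 1 adult tissue and no germ layer, and in 90 at least 1 of each. Against the 3 germ layers alone, 370 genes were at least 2-fold higher and 321 at least 2-fold lower in SK7_ESC. Against the 3 adult tissues alone the counts were 1618 and 413. These comparisons share the SK7_ESC array, and the 216 genes lie in the higher set of both by construction.

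The End array set the limit most often. Leaving it out gave 319 higher genes, 103 more, whereas leaving out Ect, Pme, Brain, Liver or Sk_muscle gave 253, 246, 244, 255 and 233. Genes that End alone kept out included several that pluripotent cells are known for. Epcam, an epithelial adhesion molecule, had 920.9 in SK7_ESC, 21.1 in Ect, 1407 in End, 41.7 in Pme, 1.0 in Brain, 13.7 in Liver and 16.5 in Sk_muscle. Lefty1, a secreted Nodal inhibitor, had 648.7 in SK7_ESC and 2047 in End, with 14.9 or less in the other 5. Eras, an ES cell Ras, had 776.3 in SK7_ESC and 1611 in End, with 13.2 or less elsewhere. Ect alone kept out Sox2, the partner of Oct4 and a gene of neural progenitors, at 3030 in SK7_ESC, 2369 in Ect, 52.1 in End, 167.3 in Pme, 373.9 in Brain, 0.6 in Liver and 0.3 in Sk_muscle.

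**Figure D2:**
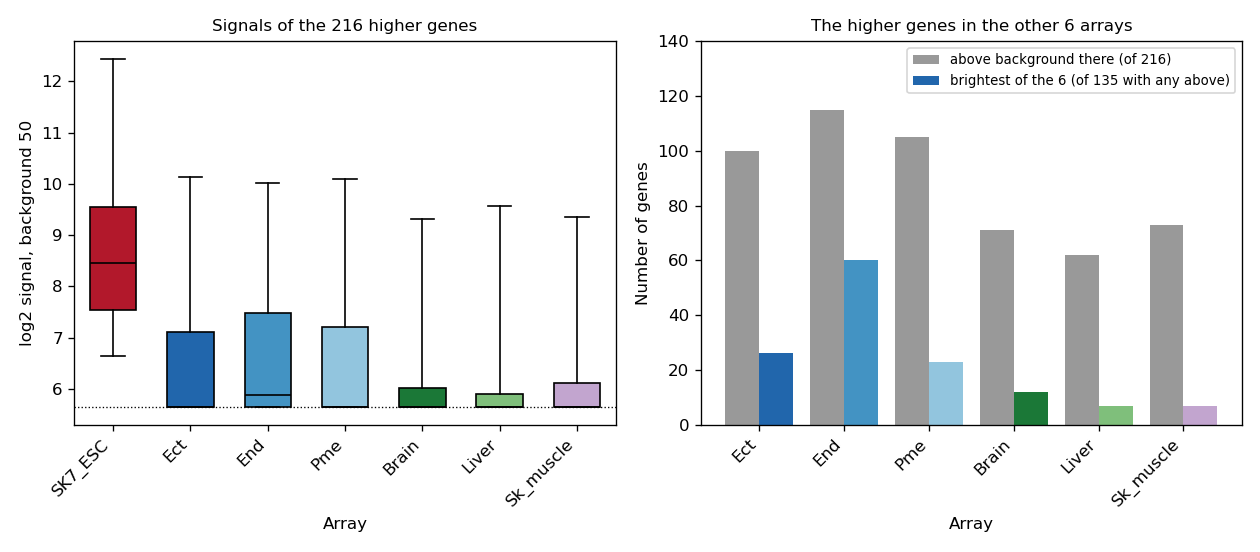
Left, log2 signals of the 216 higher genes in each array (box, quartiles with the median as a line; whiskers, lowest and highest; dotted line, background of 50), with SK7_ESC at a median of 350.3 on the linear scale and End the next at 58.8. Right, number of the 216 genes above background in each other array (grey) and number of the 135 graded genes for which that array was the brightest of the 6 (colour), which was End for 60.

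Among the 25 genes with the largest ratios, 17 were under background in all 6 other arrays and 8 were not. Pou5f1, which encodes Oct4, had 2038 in SK7_ESC, 7.5 in Ect, 57.3 in End, 25.7 in Pme, 2.2 in Brain, 1.5 in Liver and 2.1 in Sk_muscle, a ratio of 35.6 set by End. Zfp42, the zinc finger gene known as Rex1, had 3415 in SK7_ESC and between 1.5 and 28.0 in the other arrays, at least 68.3-fold. Fbxo15, an F-box gene activated by Oct4, was at least 34.0-fold higher, at 1702 in SK7_ESC and 13.7 or less elsewhere. Utf1, a chromatin protein of ES cells, was at least 27.7-fold higher by its main probe set, with 1384 in SK7_ESC and 37.1 or less in the others. Neither of its 2 other probe sets met the limit, and only 1 of these was above background in SK7_ESC. Dppa4 and Dppa2, neighbouring genes for a pair of SAP-domain proteins, had 1289 and 1175 in SK7_ESC with no other array over 43.2.

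Several of the largest ratios belonged to genes outside the pluripotency circuit. Trap1a, the gene of tumour rejection antigen P1A, had 1535 in SK7_ESC, 73.0 in Ect, 10 in End, 20.4 in Pme, 4.1 in Brain, 8.8 in Liver and 4.2 in Sk_muscle. Ipp, a kelch-family gene named after a placental transcript that starts in an intracisternal A particle, had 2065 in SK7_ESC, 92.6 in Ect, 103.5 in End, 91.8 in Pme, 59.3 in Brain, 83.2 in Liver and 74.9 in Sk_muscle. It stood 20-fold over End while all 6 other arrays were above background. L1td1, an RNA-binding protein derived from a LINE-1 element, had 1924 in SK7_ESC, 100.8 in End and 34.5 or less elsewhere. Mymx, a micropeptide gene needed for myoblast fusion, had 829.5 in SK7_ESC against 20 in Sk_muscle and 5.2 or less in the other 5 arrays. Mageb16, of the MAGE family, and Rpl39l, a copy of the ribosomal protein gene Rpl39, were each at least 15.1-fold higher, with 757.2 and 755.4 in SK7_ESC.

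**Figure D3:**
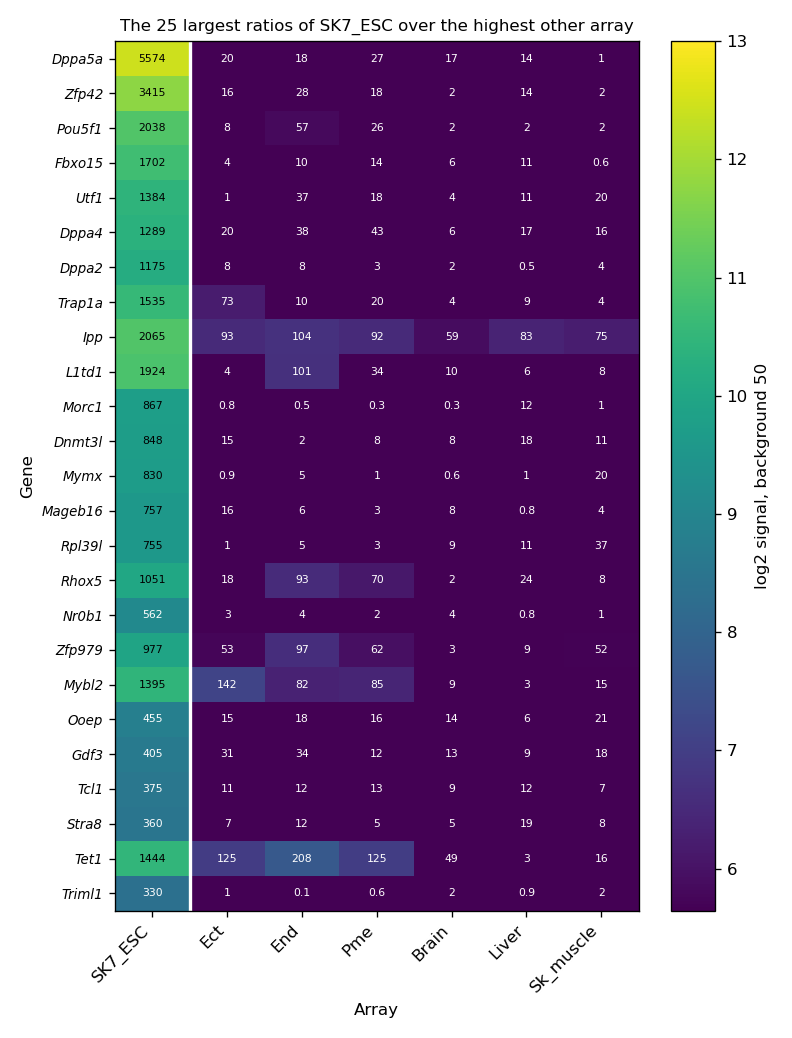
Signals of the 25 genes with the largest ratios of SK7_ESC over the highest other array, predicted genes left out, in rows, and the 7 arrays in columns with SK7_ESC at the left. Numbers are the deposited signals and colours their log2 after raising values under 50 to 50. Outside SK7_ESC the brightest cell is Tet1 in End, at 207.8.

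Of the core and naive pluripotency factors, 19 of 35 measured genes were higher (54.3%, against 1.19% of all genes) and none was lower. In 13 of the 19 the other 6 arrays were all under background, and the median ratio was 7.50. Nanog, the third factor of the circuit, had 1533 in SK7_ESC, 6.8 in Ect, 299.5 in End, 27.8 in Pme, 0.7 in Brain, 2.2 in Liver and 4.7 in Sk_muscle, 5.12-fold over End. The orphan nuclear receptor Nr0b1 had 561.8 in SK7_ESC and 3.8 or less elsewhere. Tfcp2l1 and Prdm14, transcriptional regulators of the naive state, were at least 6.22-fold and at least 2.74-fold higher. Prdm14, and also Rex2 and Esrrb of this list, were not called at a background of 100. Klf4 and Klf2, whose products sustain naive cells, were next brightest in Sk_muscle. Klf4 had 893.5 in SK7_ESC and 322.2 in Sk_muscle, and Klf2 had 689.0 in SK7_ESC and 309.8 in Sk_muscle, with 63.9 or less in the remaining arrays. Klf5 was 3.84-fold higher, with End next at 207.6, though its other probe set above background did not meet the limit.

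Not all of this list was restricted to ES cells. Sall4, a zinc finger factor also used in endoderm, had 1565 in SK7_ESC, 495.0 in Ect, 2947 in End, 1274 in Pme and 2.5 or less in the adult tissues. Nr5a2, a nuclear receptor of both ES cells and liver, had 152.5 in SK7_ESC, 641.7 in Liver and 9.4 or less in the other 5. Stat3, which carries the LIF signal, had 375.6 in SK7_ESC and 1371 in Liver. Each of these 3 lay below another array and so outside the set.

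The germ cell and meiosis list had 14 of 61 measured genes higher (23%) and none lower, 10 of them under background in all other arrays. Stra8, through which retinoic acid starts meiosis, had 359.7 in SK7_ESC, 7.2 in Ect, 11.7 in End, 5.1 in Pme, 5.3 in Brain, 19 in Liver and 7.6 in Sk_muscle. Dmrt1, a sex determination factor, and Dppa3, a maternal protein of oocytes and germ cells, were at least 6.05-fold and at least 5.05-fold higher. Sycp3, a lateral element of the synaptonemal complex, Mael, a piRNA pathway protein, and Ddx4, the germ cell RNA helicase, had 242.2, 180.1 and 121.2 in SK7_ESC with no other array over 16.1. Hsf2bp, a meiotic recombination gene, was the exception in Liver, with 242.0 in SK7_ESC, 71.6 in Liver and 12.2 or less elsewhere. Rnf17, a tudor-domain gene of germ cells, was at least 3.20-fold higher by 1 probe set of 4. None of the others met the limit, and 2 of these were above background in SK7_ESC. With a background of 100, 9 of the 14 remained, and Mael, Sohlh2, Rnf17, Tex15 and Ddx4 were not called.

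Promoters of 3 of these germ cell genes are shown because they contain the E-box CACGTG, a palindrome that Max-containing dimers bind. The sequences are from RefSeq, build GRCm38.p6, read along the gene's strand from 250 bases before to 50 after its start. Capitals mark CACGTG and, in Ddx4, also GGCGGGAA, the reverse complement of the E2F-type motif TTCCCGCC.
Mael: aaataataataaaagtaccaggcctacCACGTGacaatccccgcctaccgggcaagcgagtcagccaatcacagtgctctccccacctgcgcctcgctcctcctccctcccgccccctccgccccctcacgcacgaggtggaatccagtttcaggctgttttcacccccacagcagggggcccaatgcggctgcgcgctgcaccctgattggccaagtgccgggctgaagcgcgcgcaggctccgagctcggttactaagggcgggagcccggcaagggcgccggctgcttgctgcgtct
Sycp3: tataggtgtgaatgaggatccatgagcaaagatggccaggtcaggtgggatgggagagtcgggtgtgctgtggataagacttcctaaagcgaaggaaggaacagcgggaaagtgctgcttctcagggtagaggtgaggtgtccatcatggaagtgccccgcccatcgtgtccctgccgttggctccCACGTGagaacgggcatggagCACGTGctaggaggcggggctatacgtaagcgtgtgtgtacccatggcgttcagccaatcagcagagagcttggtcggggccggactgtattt
Ddx4: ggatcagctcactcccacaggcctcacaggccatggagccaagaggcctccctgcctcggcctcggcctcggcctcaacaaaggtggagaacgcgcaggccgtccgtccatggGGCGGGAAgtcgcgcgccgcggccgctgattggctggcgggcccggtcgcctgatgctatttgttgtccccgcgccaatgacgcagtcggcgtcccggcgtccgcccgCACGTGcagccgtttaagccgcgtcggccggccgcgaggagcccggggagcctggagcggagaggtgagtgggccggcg

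The windows lie at chr1:166238695-166238994 on the minus strand for Mael, chr10:88459337-88459636 on the plus strand for Sycp3 and chr13:112652261-112652560 on the minus strand for Ddx4. Sycp3 held CACGTG at 2 places, starting 64 and 43 bases before the gene's start, and Ddx4 held it at 29 bases before. Of the 14 germ cell genes, 9 had a promoter in the table and 3 of those contained CACGTG. Searched on both strands, CACGTG occurred in 19 of 166 promoters of higher genes (11.4%) and in 1299 of 14369 promoters of all genes (9.04%). TTCCCGCC occurred in 13 (7.83%) and 476 (3.31%) of the same promoters, and TCACGTGA, which contains the E-box, in 0 and 207 (1.44%). Promoters were matched for 76.9% of the higher genes and 79% of all genes, less than 80%, so a comparison of these shares is void and they stand as a description.

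Regulators of DNA methylation and chromatin had 10 of 68 measured genes higher (14.7%) and none lower. Morc1, an ATPase that silences transposons in the male germ line, had 867.2 in SK7_ESC, 11.5 in Liver and 1.1 or less in the other 5 arrays. Tet1, which oxidises methylated cytosine, had 1444 in SK7_ESC, 124.7 in Ect, 207.8 in End, 125.3 in Pme, 49.1 in Brain, 2.9 in Liver and 15.8 in Sk_muscle. All 3 germ layers were above background for Tet1, and the ratio to End was 6.95. The polycomb genes Phc1, Eed, Suz12 and Cbx7 had 1545, 1743, 1035 and 238.1 in SK7_ESC and ratios of 4.58, 2.28, 2.05 and 2.09. Ezh2, the methyltransferase that works with Eed and Suz12, was not in the set, with 1537 in SK7_ESC and 1668, 1420 and 1211 in Ect, End and Pme. Ash2l, a core subunit of MLL complexes, and Kdm4c, a histone demethylase, had ratios of 2.07 and 2.49, and Zfp57, which keeps methylation at imprints, was at least 2.08-fold higher at a low signal of 104.2.

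At least 2-fold above the median of the other 6 arrays were 32 of the 68 chromatin genes, the 10 called ones included, compared with 7.29% of all genes. Of the DNA replication and cell cycle genes, 37 of 51 were 2-fold above the median of the others and 3 were called. Those 3 were Mybl2, encoding the cell cycle factor B-Myb, at 1395 in SK7_ESC and 142.5 in Ect, and the cyclin genes Ccne1 and Ccnf, with ratios of 2.05 and 2.02. Each of the 3 had another probe set that was called the same way.

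Zinc finger factors formed the other list above a share of 20%, with 7 of 34 higher, 5 of them lower bounds. Of these 7, Zfp42 and Rex2 were counted in the pluripotency list too. The lists were chosen with earlier results of these data known. In 27 of the 35 the share of higher genes exceeded the 1.19% of all genes. These are all the lists with any higher gene, since 1 called gene is enough to pass that share in lists of this size. Zfp936, a KRAB gene, had 308.0 in SK7_ESC and 15.5 or less elsewhere, and Zfp296, a partner of Klf4, had 206.4 in SK7_ESC and 21.9 or less elsewhere. Zbtb8a had 261.0 in SK7_ESC and 65.6 in Ect. Among all 336 measured genes whose symbol begins with Zfp, 12 were higher (3.57%) and 2 lower. Zfp979, Zfp982 and Zfp991 are neighbours of related sequence on the same chromosome, and their probe sets may detect each other's transcripts, so their separate signals are uncertain. Zfp979 had 977.3 in SK7_ESC, 53.3 in Ect, 97.4 in End, 62.2 in Pme, 3.1 in Brain, 8.7 in Liver and 51.9 in Sk_muscle.

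Genes of oocytes and cleavage embryos were higher in 5 of 37 measured (13.5%), all 5 under background elsewhere. Ooep and Khdc3, parts of the subcortical maternal complex, had 454.7 and 133.6 in SK7_ESC with no other array over 41.7. Tcl1, a coactivator of Akt, had 374.8 in SK7_ESC and 13 or less elsewhere, and Nlrp4f, an oocyte NLRP gene, had 226.4 in SK7_ESC and 8.6 or less. The trophoblast list had 3 of 28 higher, Rhox5, Tfap2c and the connexin gene Gjb5, and its summed signal was 8421 in SK7_ESC, 2216 in Ect, 17021 in End, 13202 in Pme, 1564 in Brain, 4999 in Liver and 760.3 in Sk_muscle. The primitive endoderm list had 3 of 30 higher, the endocytic receptor genes Amn and Cubn and the laminin gene Lama1, at signals of 123.1, 111.4 and 197.9 in SK7_ESC. Khdc3, Usp17la, Gjb5, Amn, Cubn and Lama1 lost their calls when the background was set at 100, which left 3 of 37 in the oocyte list and none in the primitive endoderm list.

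Signalling genes were called in both directions. Gdf3, a TGF-beta family ligand, had 404.7 in SK7_ESC, 30.8 in Ect, 34.2 in End, 11.7 in Pme, 13.4 in Brain, 8.7 in Liver and 17.6 in Sk_muscle. Tdgf1, the Nodal coreceptor Cripto, had 2788 in SK7_ESC, 773.7 in End and 37.6 or less in the other 5, a ratio of 3.60. Inhbb, a subunit of activin B, was 2.50-fold higher. On the receptor side, Acvr2a and Bmpr2, type II receptors for activins and BMPs, were lower in SK7_ESC by ratios of 2.62 and 2.28. No other probe set of either gene was called, nor was any other activin, BMP or TGF-beta receptor gene of the list. The 2 other probe sets of Bmpr2 were not above background in all 6 other arrays and so could not be called. Id3, a target of BMP signals, was lower by at least 2.46. The list therefore had 3 of 36 higher and 3 of 36 lower. With array medians equalised Bmpr2 and Id3 were no longer called, and with a background of 100 neither Inhbb nor Acvr2a nor Id3 was.

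Of the FGF and ERK list, 2 of 31 genes were higher. Fgf4, the FGF that ES cells make themselves, had 195.5 in SK7_ESC, 21.0 in Ect, 14.2 in End, 12.2 in Pme, 18.3 in Brain, 34.9 in Liver and 11.6 in Sk_muscle. Etv5, an ETS factor downstream of FGF, had 936.0 in SK7_ESC and 260.4 in Brain, the highest of the others, and both genes had 2 further probe sets called the same way. In the LIF and JAK list, Klf4 and the kinase gene Pim1 were higher and Jak2 was lower, with 36.4 in SK7_ESC and between 122.1 and 213.7 in the others. Fgf4 and Jak2 were not called at a background of 100, and Pim1 was not called after quantile normalization. No gene of the Wnt list (0 of 43) or of the cell cycle inhibitors (0 of 30) was called. The same held for MHC class I and interferon response (0 of 33), cytoskeleton and lamina (0 of 43) and vesicle traffic (0 of 41). Over all genes 1.19% were called higher and 0.319% lower, so lists of this size can easily hold none. In the Wnt list 5 genes were 2-fold above and 5 were 2-fold below the median of the other 6 arrays. In the MHC list these counts were 2 and 5.

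The nucleotide list had 3 of 33 measured genes higher (9.09%) and the lipid and phospholipase list 3 of 36 (8.33%). Upp1, uridine phosphorylase, had 2387 in SK7_ESC, 30.0 in Ect, 802.9 in End, 62.7 in Pme, 18.8 in Brain, 12.9 in Liver and 23.4 in Sk_muscle. Dut, the dUTPase, and Dhodh, of pyrimidine synthesis, had ratios of 2.05 and 2.02, and Dut was not called after quantile normalization. The phospholipase genes Pla2g1b and Pla2g10 were at least 4.30-fold and at least 3.37-fold higher, and Smpdl3b, a phosphodiesterase of the cell surface, was 2.24-fold higher. Of these 3 lipid genes, Pla2g10 and Smpdl3b were not called at a background of 100. Gsta4, a glutathione transferase, had 3727 in SK7_ESC, 1087 in Ect, 822.8 in End, 691.0 in Pme, 359.7 in Brain, 490.1 in Liver and 242.6 in Sk_muscle. Pdk1, which restrains pyruvate dehydrogenase, Bcat1, a branched-chain aminotransferase, and Mthfd1, of folate metabolism, had ratios of 2.56, 2.55 and 2.11, and each was the single called gene of its list.

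DNA repair and telomere genes in the set were graded. Msh6, of mismatch repair, had 2730 in SK7_ESC, 869.2 in Ect, 708.9 in End, 665.5 in Pme, 64.5 in Brain, 58.4 in Liver and 33.0 in Sk_muscle. Ung, the uracil glycosylase, had 675.1 in SK7_ESC and 279.3 in End, and Terf1, a shelterin protein, had 681.8 in SK7_ESC and 266.8 in Pme. The RNA polymerase I subunit gene Polr1b and Wdr12, of ribosome assembly, had ratios of 2.16 and 2.02. In this nucleolar list 26 of 37 genes were 2-fold above the median of the other arrays and 3 were called. Rest, the repressor of neuronal genes, was the 1 higher gene among 52 transcription factors of differentiated cells, at 847.2 in SK7_ESC, 260.4 in End and 22.7 in Brain.

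**Figure D4:**
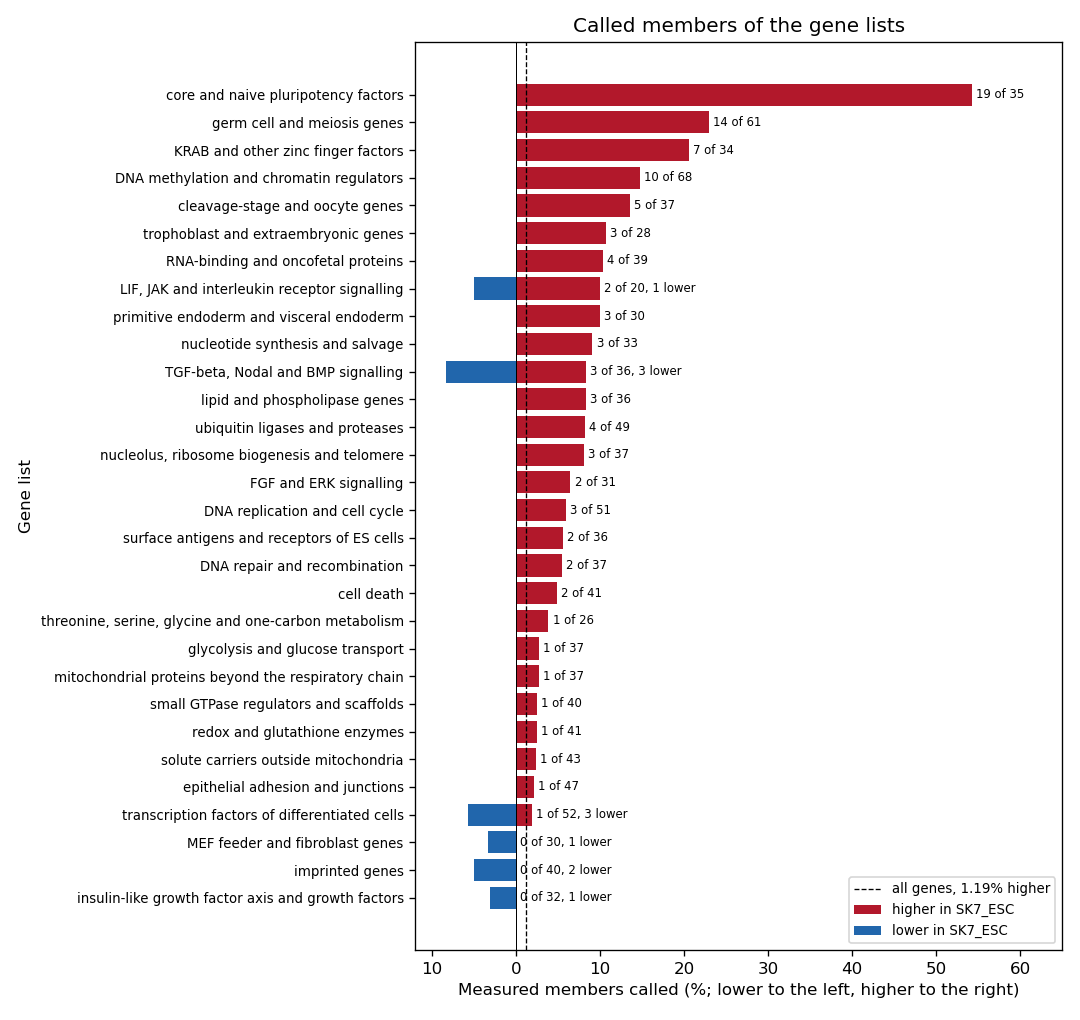
Percentage of measured members of each gene list called higher (bars to the right) or lower (bars to the left) in SK7_ESC, with the numbers beside the bars and the share of all genes called higher, 1.19%, as a dashed line. The pluripotency list stands at 54.3% and the germ cell list at 23%, and the 5 lists with no called gene are not drawn. The lists were chosen with earlier results of these data known, and some genes are in several of them.

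Members of the pluripotency and germ cell lists made up 33 of the 216 higher genes. These lists are not complete. The germ cell genes Psma8, Rbmxl2 and Aurkc and the ES cell markers Dnmt3l and Fgf4 lie outside them. Of the remaining 183, 53 were in another list and 130 in none. The 130 had a median ratio of 2.42, the 86 in any list 3.41, and 40 of the 130 were under background in all other arrays. The genes named in the next 3 paragraphs belong to these 130 and were grouped by function after their values were seen. How many genes of each group were measured was not counted, so no group has a share to set beside the 1.19% of all genes.

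A group of 11 testis-expressed gene copies and antigens, picked from the called genes, had ratios between 2.46 and 21.0, of which 8 are lower bounds. Besides Trap1a, Mageb16 and Rpl39l it held Fmr1nb and Pnma5, 2 cancer-testis type genes, and Uba1y, the Y-linked copy of the ubiquitin activating enzyme. Rps4l, a copy of the ribosomal protein gene Rps4x, had 2916 in SK7_ESC, 299.0 in Ect, 480.6 in End, 938.5 in Pme, 58.5 in Brain, 70.1 in Liver and 8.0 in Sk_muscle. Cox6b2, the testis form of a cytochrome oxidase subunit, had 522.7 in SK7_ESC, 195.6 in End and 22.9 or less in the adult tissues. Psma8, the germ cell proteasome subunit, Rbmxl2, a germ cell RNA-binding protein, and Aurkc, the Aurora kinase of meiosis, were at least 3.92-fold, at least 3.90-fold and at least 2.48-fold higher. Apart from Uba1y, whose other probe set was not called, each of the 11 had a single probe set, so no second one could be checked. Psma8, Rbmxl2, Uba1y, Aurkc and Pnma5 were under 200 in SK7_ESC and were not called at a background of 100.

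Factors that act on retroelements, on genome maintenance and on chromosomes formed 3 further groups. Mov10, Apobec3 and Tasor had ratios between 2.05 and 3.63, and the piRNA trimmer gene Pnldc1 was at least 2.11-fold higher. At a background of 100 Pnldc1 was not called. Tasor, a subunit of the HUSH silencing complex, had 257.1 in SK7_ESC and 117.0 in Brain, and its partner Mphosph8 lay just outside the limit with a ratio of 1.99. Hmces, which shields abasic sites, the helicase genes Helb and Hltf, Xrcc6 of end joining and Ube2t of the Fanconi pathway had ratios between 2.03 and 3.48. Sgo2a, a protector of centromeric cohesion, Esco2, a cohesin acetyltransferase, Ska1, of the kinetochore, and Haus4, an augmin subunit, had ratios between 2.07 and 3.20. For Esco2 the signals were 925.5 in SK7_ESC, 214.3 in Ect, 289.1 in End, 128.0 in Pme, 1.4 in Brain, 7.8 in Liver and 0.6 in Sk_muscle.

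Of the remaining genes, 9 were grouped under chromatin and general transcription and 8 under the nucleolus and RNA processing. Epop, an Elongin-binding partner of polycomb complex 2, had 493.0 in SK7_ESC, 52.3 in Ect, 63.1 in End, 32.5 in Pme, 78.0 in Brain, 9.3 in Liver and 3.0 in Sk_muscle. Kat6b, Jade1 and Hat1, of histone acetylation, Mta3, the TAF genes Taf4b and Taf5l, Gtf2h1 of TFIIH and Rbpj of Notch signalling had ratios of 2.11 to 3.24. Urb1, Urb2, Heatr1, Nol8, Tcof1, Exosc5 and Senp3, whose products work in the nucleolus or process RNA, had ratios of 2.11 to 2.86, and Rpp25 was at least 2.34-fold higher. Srm, spermidine synthase, and Dhps, which uses spermidine to make hypusine, had 1738 and 663.6 in SK7_ESC and ratios of 2.27 and 2.02. Inpp5d, Plcg2 and Map4k1, signalling genes best known from blood cells, had signals of 140.3, 343.7 and 106.0 in SK7_ESC. At a background of 100, Urb1, Rpp25, Inpp5d and Map4k1 were not called. The noncoding transcripts Snhg3, Platr10 and Bvht were 2.46-fold, at least 4.59-fold and 2.01-fold higher.

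Some of the higher genes were neighbours on the chromosomes. When the genes of the array were placed in chromosome order with RefSeq, 26 of the 216 (12.0%) had a higher gene as the next gene on at least 1 side, in 12 runs. Among all genes 1.19% were higher, each gene has 2 neighbours, no test was made of this share, and neighbours can be copies of each other. Gdf3, Dppa3 and Nanog formed 1 run of 3, and Zfp991, Zfp982 and Zfp979 the other. The pairs included Dppa4 with Dppa2, Dppa5a with Ooep, Zfp42 with Triml1, Mybl2 with Gtsf1l, Apobec3 with Cbx7, and Psma8 with Taf4b. None of the 58 lower genes was next to another lower gene. The X chromosome held 8 higher genes among 617 (1.30%).

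The 58 lower genes were ones that all 6 other samples expressed and SK7_ESC had less of. Their median signal was 56.3 in SK7_ESC, against 248.8 in Ect, 196.4 in End, 253.0 in Pme, 325.7 in Brain, 328.9 in Liver and 411.2 in Sk_muscle. In 24 of them SK7_ESC was under background, which makes their ratios lower bounds. The median ratio was 2.36, with 10 genes at 3-fold or more and 3 at 4-fold or more. The dimmest of the other arrays was End for 24, Pme for 10, Ect for 9, Brain for 6, Liver for 6 and Sk_muscle for 3. None belonged to the pluripotency or germ cell list, 9 were in another list and 49 in none.

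The largest ratio was that of Hipk2, a kinase that phosphorylates p53, with 42.8 in SK7_ESC, 693.1 in Ect, 402.2 in End, 247.8 in Pme, 655.2 in Brain, 417.4 in Liver and 663.7 in Sk_muscle. It was at least 4.96-fold lower, but none of its 7 other probe sets met the limit. Only 2 of those 7 were above background in all 6 other arrays, which a lower call requires. Jun, the AP-1 subunit, had 47.8 in SK7_ESC, 665.8 in Ect, 1012 in End, 1225 in Pme, 233.2 in Brain, 206.0 in Liver and 1426 in Sk_muscle. Its second probe set was called the same way, and it was at least 4.12-fold lower. Irs1, the insulin receptor substrate, had 35.1 in SK7_ESC, 625.9 in Ect, 182.7 in End, 354.6 in Pme, 214.4 in Brain, 246.2 in Liver and 1852 in Sk_muscle, at least 3.65-fold lower by its only probe set. The 6 other samples were 182.7 or more for Irs1 and 206.0 or more for Jun, with germ layers and adult tissues overlapping in both.

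App, the amyloid precursor protein gene, had 300.9 in SK7_ESC, 977.3 in Ect, 1445 in End, 1055 in Pme, 3294 in Brain, 1029 in Liver and 1174 in Sk_muscle. Cd47, the signal that restrains phagocytosis, had 69.1 in SK7_ESC and at least 204.9 in the others, and 2 further probe sets were called. Dcn, the matrix proteoglycan decorin, had 21.9 in SK7_ESC, 148.1 in End, the lowest of the others, and 6504 in Sk_muscle, the highest. Sppl2a, an intramembrane protease, Ak3, a mitochondrial adenylate kinase, and Pex2, of peroxisome assembly, were lower by ratios of 4.12, 2.96 and 3.11, and Tmed3, of the early secretory pathway, by at least 2.66. Gnas, the imprinted gene of the stimulatory G protein, stayed at a signal of 1226 in SK7_ESC against 2944 to 5017 in the others, and lost its call under both other scalings of the arrays. Mef2a, a myocyte enhancer factor, had 97.6 in SK7_ESC and at least 221.7 elsewhere, but was not called with array medians equalised.

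Grouped after their values were seen, the lower genes included 8 of membrane traffic and Golgi enzymes, among them Serinc1, Vamp7 and the glycan enzymes Mgat1 and Man2a2. Their ratios lay between 2.02 and 4.12, that of Tmed3 a lower bound, and no other probe set of these 8 genes was called. The number measured in this group, and in the kinase and axon guidance groups that follow, was not counted. No share can therefore be set beside the 0.319% of all genes called lower, and the vesicle traffic list had 0 of 41 called. Besides Hipk2 there were the kinase genes Ulk2, Dyrk2, Snrk and Jak2. Sema6d, Plxna2 and Nrp1, a semaphorin and receptors of axon guidance, were all under background in SK7_ESC, at 20.5, 36.9 and 30.9. None of their other probe sets was called. Those of Sema6d and Plxna2 were not above background in all 6 other arrays and so could not be. For Nrp1 only 1 was. With a background of 100, 22 of the 58 lower genes remained, and Irs1, Dcn, Tmed3, Mgat1, Man2a2, Sema6d, Plxna2 and Nrp1 were not among them. Errfi1, a feedback inhibitor of the EGF receptor, had 122.0 in SK7_ESC, 391.7 in Ect, 283.4 in End, 301.3 in Pme, 296.7 in Brain, 8963 in Liver and 1007 in Sk_muscle.

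**Figure D5:**
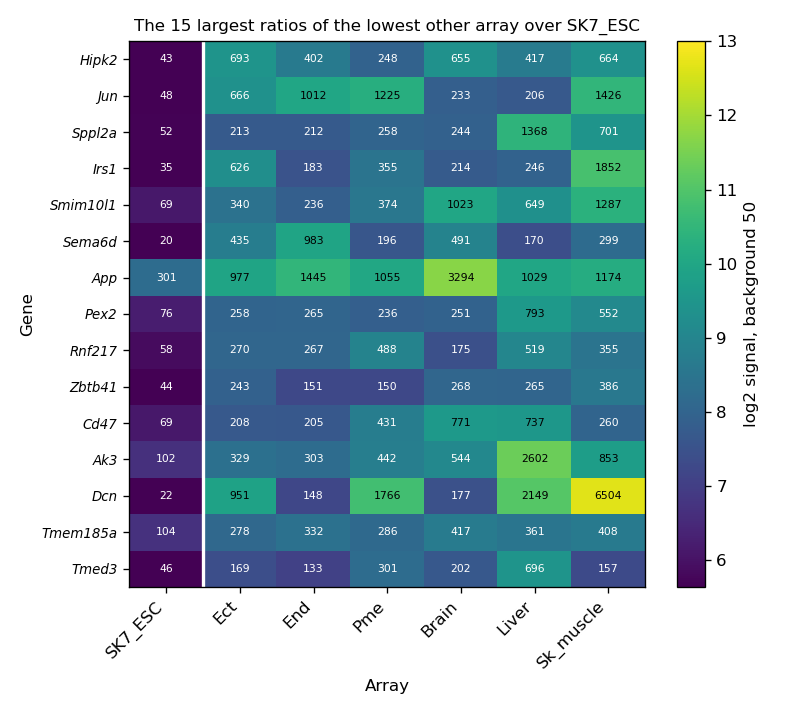
Signals of the 15 genes with the largest ratios of the lowest other array over SK7_ESC, in rows, and the 7 arrays in columns with SK7_ESC at the left. Numbers are the deposited signals and colours their log2 after raising values under 50 to 50. SK7_ESC lies between 20.5 and 300.9, and each of the other arrays is at least 2.66-fold above it.

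A second called probe set was less frequent among the lower genes, partly because fewer of their other probe sets could be called. Of the higher genes 122 had a single probe set, and 44 of the 94 with several had at least 1 other called the same way. In 65 of these 94 at least 1 other probe set was above background in SK7_ESC, and the 44 were among them. Of the lower genes 9 had a single probe set, and 9 of the 49 with several had another called the same way. In 30 of these 49 at least 1 other probe set was above background in every array but SK7_ESC, and the 9 were among them. That condition is stricter than the one for higher genes, so the 2 directions are not directly comparable. No other probe set of any of the 274 genes was called in the opposite direction. With a gene's probe sets averaged in place of the chosen one, 173 genes were higher and 26 lower, and 20 of the 58 lower genes were among the 26.

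The limit at 2-fold divided genes with nearly equal ratios. Just inside it were Fnip2, Pim1 and Acot1, with ratios of 2.01, 2.01 and 2.0, and just outside were Rif1, Gabpa and Mphosph8, with 1.99 each. Rif1, a replication timing and telomere-associated protein, had 1834 in SK7_ESC and 919.7 in End. On the lower side Narf, Mgat1 and Nrp1 were inside with 2.03, 2.02 and 2.02, and Zmynd11, Clip1 and Pigp outside with 1.999, 1.991 and 1.991. A further 99 genes exceeded background in SK7_ESC alone with signals too low to reach 2-fold, and 1875 genes above background in SK7_ESC had their highest signal of the 7 there.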

How the data were processed

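RNA of 7 samples was hybridised to Affymetrix Mouse Genome 430 2.0 arrays, 1 array per sample. The labels name an RNeasy kit and the methods TRIzol. The deposited signals of 45101 probe sets are intensities on a linear scale, to which the authors applied a global scaling with a target mean of 100. How probes were summarised is not given in the sources consulted. The mean without the top and bottom 2% of probe sets was 100.0 on each array, and array medians lay between 15.6 and 25.0. Precision is limited by there being 1 array per sample.

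Gene names came from the platform annotation, in which 34958 probe sets had 1 symbol, 932 had several and 9211 were unnamed. Of the 18194 genes, 18033 matched RefSeq (GRCm38.p6) by Entrez identifier. Ratios were computed in Python 3.11.15 with pandas 2.3.3 and numpy 2.4.6, and plots were drawn with matplotlib 3.10.9. The calling rule was run on simulated signals with planted changes, which checks the code and not the calls made in these data. The members, the 35 gene lists and the comparisons were chosen with earlier results of these data known. Named genes are the 3 markers, the 25 largest higher and 15 largest lower ratios without predicted genes, up to 4 called members per list in each direction, list members whose probe sets disagree, and 3 genes on each side of each limit. Genes named beyond this rule were chosen after their values were seen. Alternatives were backgrounds of 20 and 100, 2 other scalings, 2 other choices of probe sets, a 3-fold limit and leaving out each other array.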

Additional observations from a re-analysis of the deposited data

Results flagged for a closer look

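Probe sets outside the gene table also met the 2-fold limit. Of 9211 probe sets with no gene in the annotation used here, 26 were higher in SK7_ESC than in all 6 other arrays (0.282%) and 3 were lower (0.0326%). The largest ratio among them was at least 24.1-fold, with 1205 in SK7_ESC and 5.9 or less in the other arrays. Of 932 probe sets annotated to several genes, 10 were higher (1.07%) and 4 lower (0.429%). Neither kind of probe set was used in the comparisons.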

How the results depend on the processing

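Each of 12 alternatives at the 2-fold limit and a 3-fold limit was applied to both sets. The number of higher genes stayed within 1.5 times of 216 in all 2-fold alternatives, between 155 (background 100) and 319 (without End). At 3-fold, 90 were higher and 10 lower. The number of lower genes was less stable: 108 with a background of 20, 22 with 100, 35 with array medians equalised, 26 with probe sets averaged, 98 without End and 90 without Liver. Called genes of the lists numbered 95, against 53 at 3-fold and 145 without End. Of 96 named called genes, 55 passed 3-fold. Called under every 2-fold alternative were 104 of the 216 higher and 6 of the 58 lower genes.

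Of all called genes 78.8% were higher, against 89.8% when array medians were equalised. Over genes above background on all 7 arrays, that scaling put SK7_ESC 0.37 log2 units above the mean of the other 6 at the median, against 0.11 as deposited. Quantile normalization gave 83.9% and 0.09. No call changed direction. No paired analysis was possible because each group has 1 array and no test was made. Signals near background limit the low genes: 61 of the 216 higher genes were under 200 in SK7_ESC.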
